A study of Homo sapiens with 8 samples.

Results

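Serum response factor (SRF), its actin-regulated coactivators MRTFA and MRTFB, and 7 of their contractile and adhesion targets (VCL, FHL2, MYL9, TAGLN, CNN1, CNN2 and TPM1) were followed as 10 genes of 20037 protein-coding genes. The set was defined by gene symbol, chosen with earlier results of these data known, and all peaks overlapping the RefSeq span of each gene plus 10 kb on either side were taken from all 8 deposited peak lists. All 10 symbols matched 1 gene each. The study profiled HCT-116, a human colorectal carcinoma cell line, by CUT&RUN, in which an antibody tethers a nuclease to its target and the released DNA is sequenced. Wild type actin carrying a Flag tag and BRG1 (SMARCA4, the motor ATPase of SWI/SNF chromatin remodellers) were each profiled in 1 library of SETD3 control cells and in 2 libraries of SETD3 knockout cells, KO1 and KO2, with 1 IgG library of control cells beside each antibody. SETD3 is the enzyme that methylates a histidine of actin, and the series title names the question as whether actin methylation bears on where SMARCA4 sits in the genome. The labels do not give the promoter of the Flag-actin construct, whether the IgG cells of the Flag arm (whose title includes Empty) carried it, or whether KO1 and KO2 are separate clones. With 1 control library against 2 knockout libraries an exact permutation has 3 arrangements and its smallest one-sided p is 0.333, so values were described and no difference was tested.

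SRF binds DNA at the CArG box, a run of A and T flanked by a pair of C and a pair of G. MRTFA and MRTFB bind actin monomers through their RPEL motifs, which holds them in the cytoplasm. When monomers are drawn into filaments the MRTFs enter the nucleus, join SRF and raise transcription of genes for actin, its regulators and adhesion proteins, SRF itself among them. In smooth muscle this programme makes the contractile apparatus, and in epithelial cells it serves adhesion and migration.

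RefSeq promoters of assembly GRCh38.p14, taken from 250 bases before to 50 after an annotated start, were at hand for 8 of the 10 genes, as 17 windows. CArG boxes stood in 5 of these windows, against 1.25% of 22199 promoter windows of protein-coding genes. The following stretches end at the base before the start and are shown because BRG1 peaks of control cells lay over their CArG boxes, which are in capitals. The VCL stretch, which had no CArG box in this window, is shown because a BRG1 peak overlapped it in all 3 BRG1 libraries.
SRF, chr6:43171019-43171268, plus strand: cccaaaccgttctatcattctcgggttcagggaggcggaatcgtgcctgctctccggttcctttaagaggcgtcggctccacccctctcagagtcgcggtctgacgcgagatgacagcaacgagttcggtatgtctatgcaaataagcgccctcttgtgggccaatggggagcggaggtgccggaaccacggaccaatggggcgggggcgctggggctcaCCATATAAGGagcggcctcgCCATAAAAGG
FHL2 internal start, chr2:105399052-105399301, minus strand: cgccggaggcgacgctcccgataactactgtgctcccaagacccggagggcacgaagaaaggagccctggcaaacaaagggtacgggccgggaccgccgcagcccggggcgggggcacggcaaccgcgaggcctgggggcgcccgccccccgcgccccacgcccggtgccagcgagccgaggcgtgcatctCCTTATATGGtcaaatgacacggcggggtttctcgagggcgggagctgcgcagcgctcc
CNN2, chr19:1026358-1026607, plus strand: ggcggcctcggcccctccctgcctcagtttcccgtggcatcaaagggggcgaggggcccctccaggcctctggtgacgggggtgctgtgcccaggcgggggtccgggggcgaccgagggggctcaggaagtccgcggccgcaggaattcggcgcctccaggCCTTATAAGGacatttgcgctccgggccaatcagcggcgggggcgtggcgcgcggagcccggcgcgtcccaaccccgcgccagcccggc
VCL, chr10:73997866-73998115, plus strand: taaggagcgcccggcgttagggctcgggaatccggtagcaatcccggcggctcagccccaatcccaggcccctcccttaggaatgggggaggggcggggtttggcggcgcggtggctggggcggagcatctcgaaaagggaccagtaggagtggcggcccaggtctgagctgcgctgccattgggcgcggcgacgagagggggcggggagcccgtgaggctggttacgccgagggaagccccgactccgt
The SRF boxes begin 30 and 10 bases before the start, the FHL2 box 59 bases before, and the CNN2 box 89 bases before. A further box, CCTTAAAAGG, begins 85 bases before the FHL2 start at 105438529 and is shared with the neighbouring start at 105438513. The AP-1 motif TGANTCA stood in 1 of the 17 windows (MRTFB) against 6.15% of all, and the TEAD motif GGAATG, searched on both strands like the others, in 3 (VCL, MRTFB and FHL2) against 12.2%. A match describes letters only and does not show that a factor binds.

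The 6 antibody lists differed in length. On chromosomes 1 to 22, X and Y they held 53270 peaks for BRG1 control, 23784 for KO1 and 32038 for KO2, and 38902, 27249 and 35892 for Flag-actin. Of these, 34689, 7012 and 13220 BRG1 peaks and 26178, 13481 and 21838 Flag-actin peaks stood clear of IgG, meaning that they did not overlap the IgG list of their own arm. The sources used here do not state the signal scale of the lists, so a peak is described by its percentile of total signal within its own list, with 100 the strongest. Its height is given in steps, since maximum signals below 200 steps, where this was checked, were whole multiples of a library-specific unit to within 0.05 of a step. Heights above 200 steps are rounded on the same unit. That unit was 4.38 in BRG1 control, 11.5 in KO1 and 9.09 in KO2. Whether 1 step is 1 read is not stated, so a difference in steps between libraries is no measure of occupancy. At an FHL2 site shared with IgG the height was 917 steps in BRG1 control, 298 in KO1 and 427 in KO2.

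BRG1 peaks stood around all 10 genes in control cells and around fewer of them in the knockout lists. In peaks outside IgG, 10 of 10 genes held BRG1 in control cells (61.8% of all protein-coding genes did), 5 of 10 in KO1 (20.2% of all) and 8 of 10 in KO2 (35.8% of all). SRF, MRTFA, VCL, MYL9 and FHL2 held BRG1 peaks in all 3 lists, which 12.3% of all genes did. MRTFB, CNN1 and CNN2 held them in control and KO2, at CNN1 through 1 KO2 peak that lay in the neighbour ECSIT. TAGLN and TPM1 held them in control only, and 26.2% of all genes showed this pattern. At CNN1, CNN2 and TPM1 the control peaks all lay in the flanks of the gene, at CNN1 and CNN2 partly in neighbouring genes. None of the 10 genes held BRG1 in both knockout lists and not in the control, against 0.868% of all genes.

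Together the 10 gene windows held 38 BRG1 peaks outside IgG in the control list, 8 in the KO1 list and 17 in the KO2 list. The knockout mean minus the control was −25.5 peaks, with an SD of 6.36 between the knockout libraries (n = 2). The median per gene was 4.0, 0.5 and 1.5 peaks, against 1.0, 0.0 and 0.0 over all genes. The KO1 count was 21.1% of the control count and the KO2 count 44.7%, where the whole lists stood at 20.2% and 38.1%. The counts at these genes thus stood to each other much as the lengths of the whole lists did. With each BRG1 list shortened to its 23784 strongest peaks, the windows held 11, 8 and 9 peaks, and 7, 5 and 6 genes held one (28.9%, 20.2% and 22.1% of all genes). CNN1 was then the 1 gene with BRG1 in control only (11.3% of all genes). Per 100 kb of gene window the deposited lists held 3.86, 0.813 and 1.73 BRG1 peaks at the 10 genes and 1.93, 0.333 and 0.697 over all genes. The median window was 40.8 kb for the 10 genes and 44.1 kb for all.

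**Figure D1:**
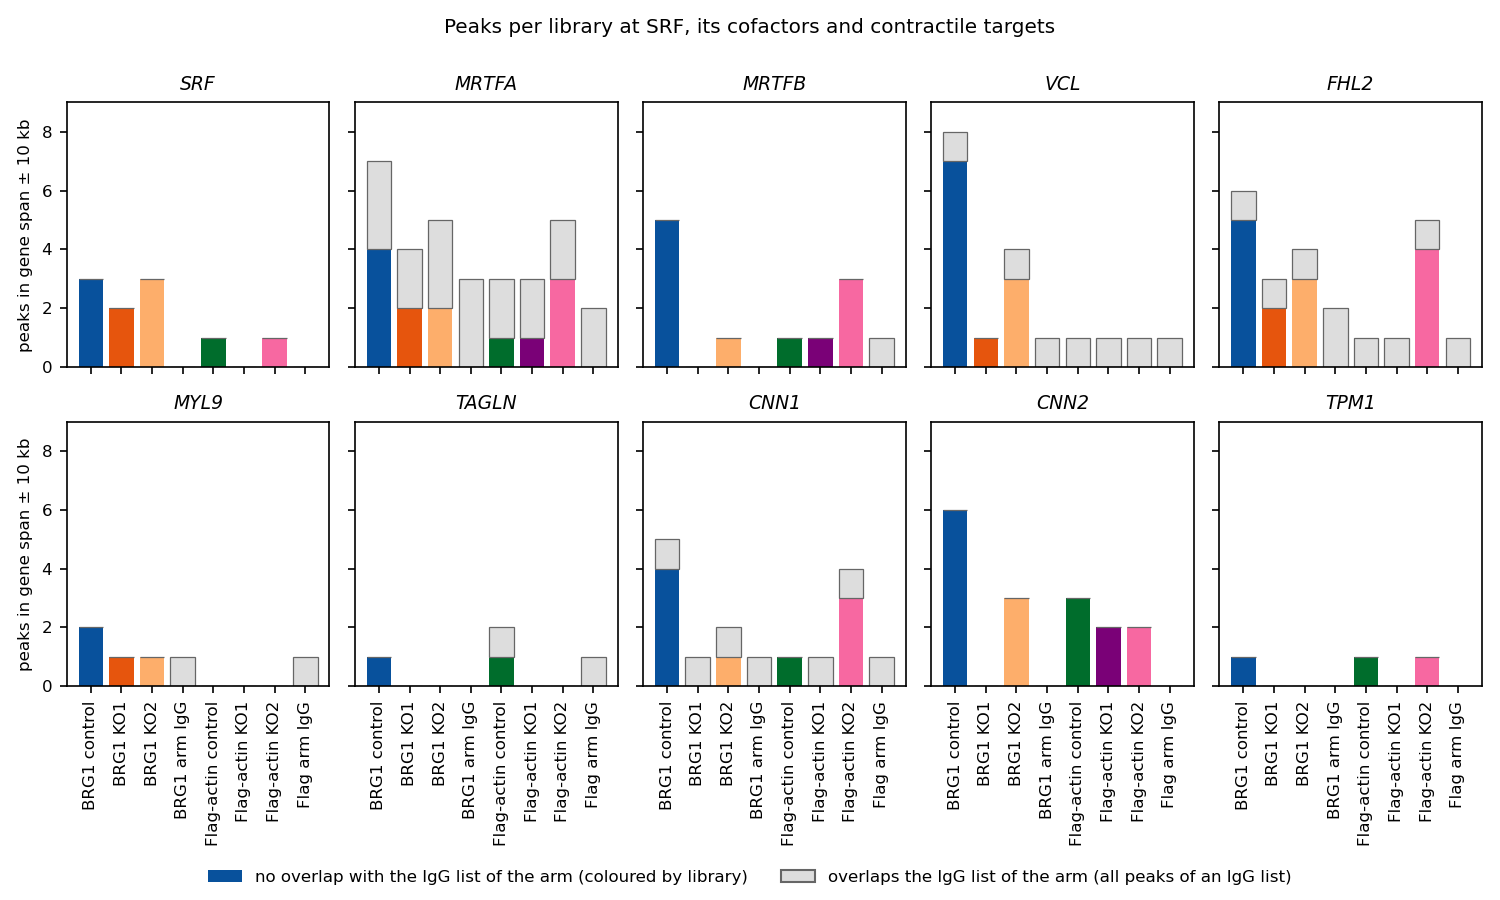
Number of peaks (vertical axis) in the span of each gene plus 10 kb on either side, for the 8 libraries. Coloured bars count peaks outside IgG and grey bars those that overlap the IgG list of their arm. The BRG1 control bar is the highest BRG1 bar at 9 genes, SRF being the exception with 3 peaks in control and 3 in KO2, and MRTFA has the most grey.

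SRF, the transcription factor at the centre of the set, lies on chromosome 6 from 43171269 to 43181506. Its window held 3 BRG1 peaks in control, 2 in KO1 and 3 in KO2, and none in either IgG list. The strongest control peak was inside the gene, at 43174281 to 43174960, 3012 bases past the start. It was 680 bp wide, 27 steps high and at percentile 85.5, or 59.5 by maximum signal. KO1 had both of its peaks at this place, at percentiles 6.48 and 10.4 and heights of 6 and 8 steps, and KO2 had a peak there at percentile 51.8 and 10 steps. BRG1 therefore marked the interior of SRF in all 3 lists, at a lower percentile in each knockout list than in the control. Percentiles of BRG1 peaks outside IgG were lower in the knockout lists generally, with a median of 19.9 in KO1 and 26.1 in KO2 against 36.8 in control. Whether the difference at SRF goes beyond this was not tested.

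At the SRF start, a control peak ran from 288 bases before it to 61 after (percentile 71.4) and covered both CArG boxes. A second control peak lay just upstream, from 588 to 319 bases before the start, at percentile 60.5. KO2 had 1 peak here, from 238 to 89 bases before the start at percentile 43.1, which ended short of the boxes. It was 15 steps high, where the KO2 peak inside the gene was 10 steps high. KO1 had none at the start. The last KO2 peak, at percentile 14.1, lay beyond SRF in the neighbouring gene CUL9.

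The CArG boxes of FHL2 and CNN2 were read against the lists in the same way. Of the 5 distinct boxes, 4 were wholly inside a BRG1 control peak (15.8% of 273 promoter boxes of all genes), 0 inside a KO1 peak (1.10% of all) and 0 inside a KO2 peak (3.30% of all). Both SRF boxes lay inside the same control peak, so the 4 boxes are not separate units. The control peaks over the FHL2 and CNN2 boxes had total signals of 5040 and 4339. These lay below the lowest total signal in KO1 (6228) and in KO2 (5182), while the SRF peak, at 9993, lay above both. Whether the lists share a scale was not tested. Over all genes, 61 of 277 promoter windows with a CArG box had a BRG1 control peak, where 21.0% of all promoter windows did. With KO1 the share was 2.17% of windows with a box and 2.33% of all, and with KO2 6.86% and 7.37%. Across the genome these shares lay close together. Of the 17 windows of the set, 8 had a BRG1 peak in control, 1 in KO1 and 4 in KO2, some of them overlapping windows of 1 gene.

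**Figure D2:**
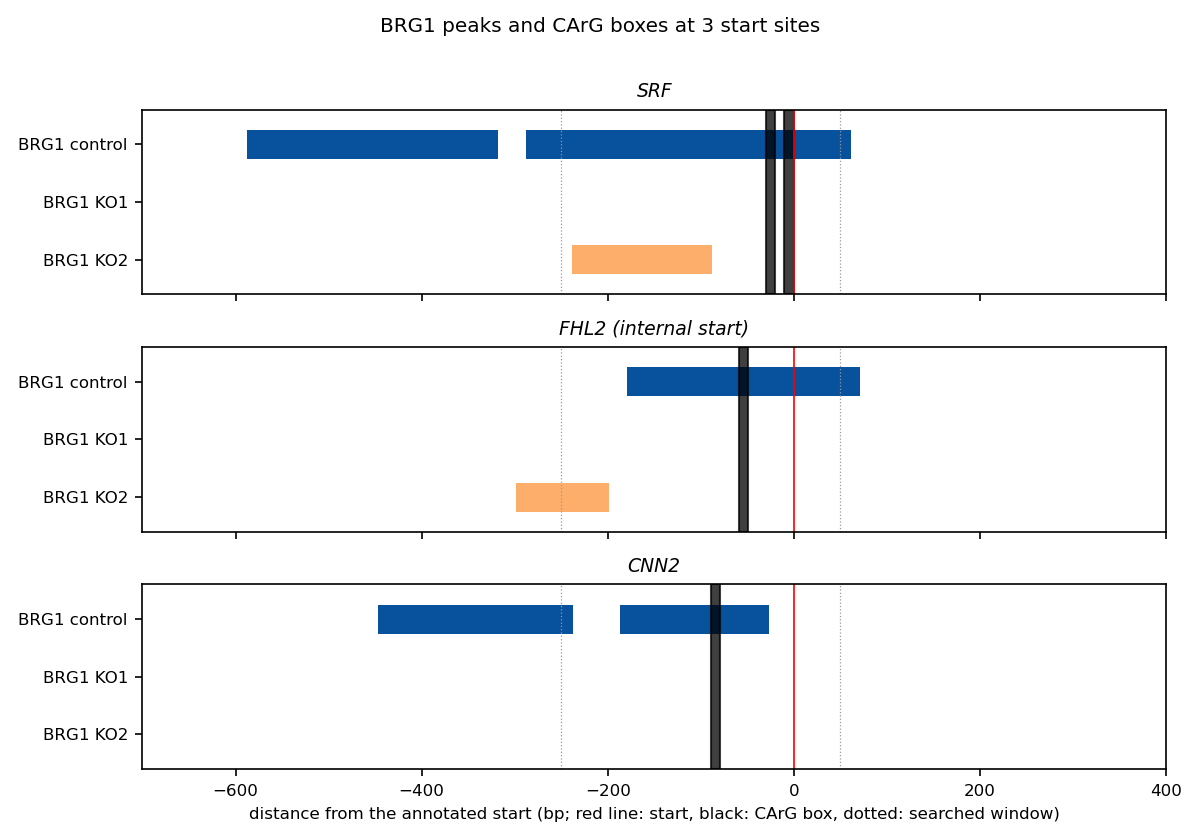
BRG1 peaks (bars, 1 line per library) around 3 annotated starts, with distance from the start in bases on the horizontal axis. Red lines mark the start, black bands the CArG boxes and dotted lines the window searched. Each control line has a bar over the boxes, the KO2 bars at SRF and FHL2 end before them, and KO1 has no bar in view.

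MRTFA and MRTFB are the coactivators that sense actin monomers. MRTFA (chromosome 22, 40410289 to 40636719) held 4 BRG1 peaks outside IgG in control cells and 2 in each knockout list. The control peak with the highest percentile lay over its annotated start at 40636719, from 40636681 to 40637100, at percentile 72.2. KO2 had a peak there at percentile 48.8 and KO1 had none. Inside the gene, a control peak of 100 bp at 40498661 (percentile 25.3) had the same position in KO1, where it stood at percentile 40.8. A second KO1 peak beside it, at 40499291 (percentile 52.7), overlapped the other KO2 peak at 40499301 (percentile 10.5), and the control had none there.

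MRTFB (chromosome 16, 13994774 to 14266779) is the longest gene of the set and had 5 BRG1 peaks in control, none in KO1 and 1 in KO2. The control peaks were all low, between percentiles 1.89 and 27.6. One of them, at 14070991 to 14071210, overlapped the promoter windows of 3 closely spaced starts. The KO2 peak was 40 bp wide at 14045021 (percentile 33.6) and overlapped no control peak. Of BRG1 KO2 peaks up to 50 bp, 88.0% overlapped IgG, which this one did not. No MRTFB control peak was found again in a knockout list. All 5 had total signals of 4208 to 4909, where the lowest was 6228 in KO1 and 5182 in KO2. Whether these values share a scale was not tested.

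Among the targets, VCL and FHL2 had the highest BRG1 percentiles of total signal in control (84.3 and 82.7) and in KO2 (72.8 and 57.7). In KO1 FHL2 (32.4) and MYL9 (32.1) came before VCL (19.9), and by maximum signal in control MYL9 (74.7) came before FHL2 (61.5) and VCL (60.0). VCL encodes vinculin, which links integrin adhesions and cadherin junctions to actin filaments. Its window on chromosome 10 (gene span 73998116 to 74121363) held 7 BRG1 peaks outside IgG in control, 1 in KO1 and 3 in KO2. The control promoter had a pair of peaks, from 525 to 166 bases before the start (percentile 84.3) and from 125 before to 44 after (percentile 44.2). KO2 had a peak over the first at percentile 72.8, from 455 to 166 bases before, and KO1 one over the second at percentile 19.9, from 75 before to 54 after. The other 5 control peaks lay inside the gene, at percentiles 1.89 to 62.4, and none of them had a counterpart in KO1 or KO2. KO2 had 2 more peaks inside the gene, at percentiles 5.72 and 20.6, where the control had none. At VCL the promoter was thus the place held by every BRG1 list, though KO1 and KO2 held different parts of it.

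FHL2 encodes a LIM-domain protein of adhesions and the nucleus that can bind SRF. Its span on chromosome 2 runs from 105357712 to 105438529, read from the higher coordinate. BRG1 lay near the internal start at 105399051 rather than the first start at 105438529, with 5 control peaks outside IgG within the gene, 2 in KO1 and 2 in KO2. A further KO2 peak in the window lay in the neighbour C2orf49, at percentile 0.857. The strongest control peak, 440 bp at 105396581 to 105397020 (percentile 82.7, 31 steps), began 2031 bases past the internal start. Both knockout lists held a peak of 210 bp from 105396811 to 105397020 within it, at percentile 32.4 and 6 steps in KO1 and 57.7 and 11 steps in KO2. The control peak over the internal start, from 179 bases before to 70 after, was at percentile 30.8 and covered the CArG box. In KO2 a peak of 100 bp lay 299 to 200 bases before that start at percentile 5.72. A control peak at 105404121 (percentile 49.0) had a KO1 counterpart at percentile 25.4.

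**Figure D3:**
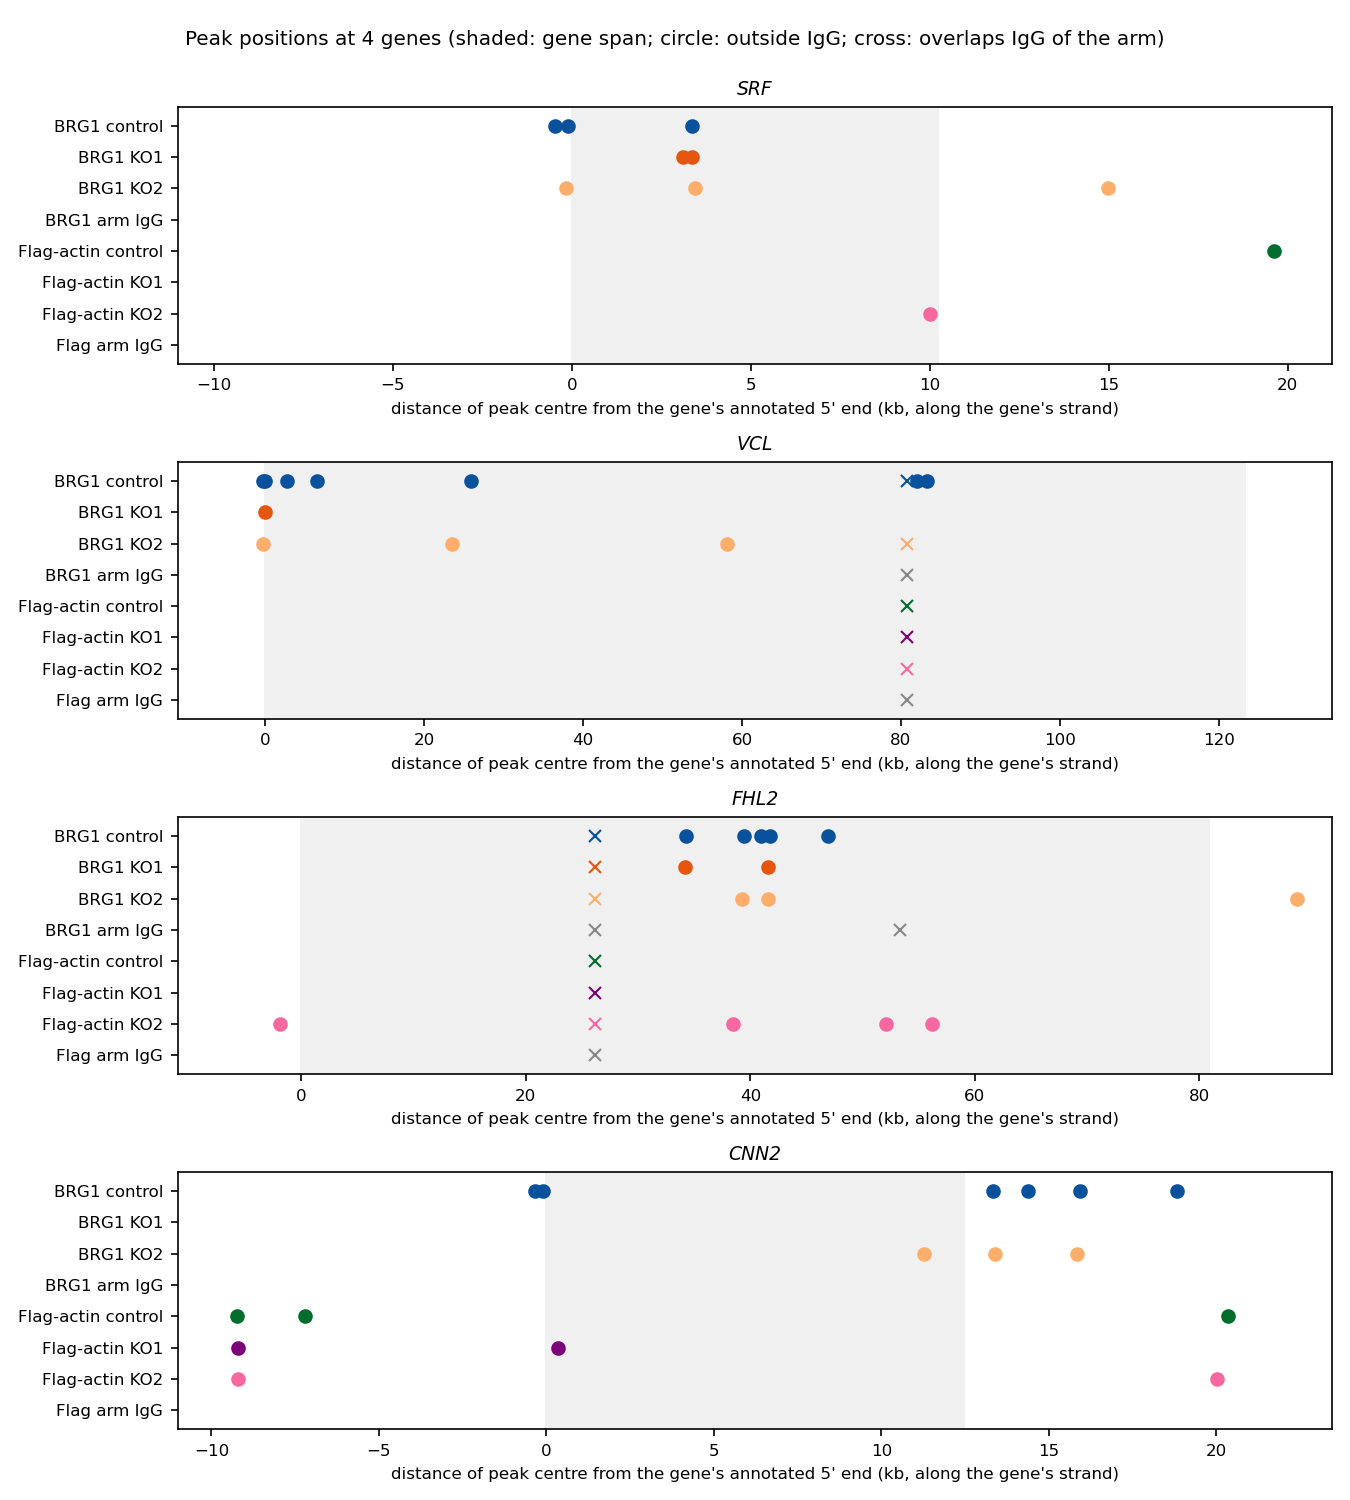
Centres of the peaks at SRF, VCL, FHL2 and CNN2 in the 8 libraries, with distance from the annotated 5′ end in kb on the horizontal axis and the gene span shaded. Circles lie outside IgG and crosses overlap the IgG list of the arm. At SRF, BRG1 circles lie at the start in control and KO2 and inside the gene in control, KO1 and KO2. At VCL they lie at the start in control, KO1 and KO2 and along the gene in control and KO2. At FHL2 most lie in the middle of the gene. The crosses at VCL and FHL2 line up across antibodies and IgG.

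The remaining targets are the contractile genes. MYL9, the regulatory light chain of non-muscle and smooth muscle myosin (chromosome 20, 36541519 to 36551447), had 2 in control cells and 1 in each knockout list. One position recurred, a peak of 50 bp at 36544831 to 36544880 in control (percentile 65.1) and of 40 bp at 36544841 to 36544880 in KO1 (32.1) and KO2 (8.84). It overlapped neither IgG list. It is as narrow as the class of peaks that mostly overlaps IgG: of BRG1 peaks up to 50 bp, 87.6%, 92.4% and 88.0% did so in control, KO1 and KO2. The wider control peak, 230 bp at percentile 38.2, had no counterpart.

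TAGLN, which encodes the actin-bundling protein transgelin (chromosome 11, 117199294 to 117207465), had 1 BRG1 peak in control cells, at 117207051 to 117207250 and percentile 32.2, where the gene overlaps PCSK7. KO1 and KO2 had none. TPM1 encodes a tropomyosin that winds along actin filaments (chromosome 15, 63042747 to 63071915). Its only BRG1 peak, in control cells, lay just outside the lower end of the gene, at 63041561 to 63041730 and percentile 1.89, and both knockout lists lacked it. These are the genes with BRG1 in control only, and each call rested on 1 control peak in the lower part of the list. Their total signals, 5084 at TAGLN and 4208 at TPM1, were below the lowest in KO1 (6228) and in KO2 (5182). A shared scale of the lists was not tested.

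CNN1 and CNN2 encode calponins, which bind actin and restrain myosin. CNN1 (chromosome 19, 11538851 to 11550323) had 4 BRG1 control peaks outside IgG, all outside the gene. The strongest, at percentile 61.9, lay 2880 to 2541 bases before the CNN1 start and had no counterpart in KO1 or KO2. Others overlapped promoter windows of the neighbours ECSIT and ELOF1. The single KO2 peak (percentile 10.5) lay in ECSIT, 9850 to 9591 bases before the CNN1 start, and KO1 had none. This KO2 peak was 4 steps high and at percentile 0.0796 by maximum signal. It overlapped a control peak that was left out because it overlapped IgG. For CNN1 the control peak upstream of the start was the nearest BRG1 signal to the gene.

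CNN2 (chromosome 19, 1026608 to 1039065) had 6 BRG1 control peaks, none in KO1 and 3 in KO2. A pair at the CNN2 promoter was weak, at percentiles 10.3 and 8.39, with the second covering the CArG box. Neither was found in a knockout list. The strongest peak in the window, at percentile 77.2, lay over the start region of the neighbour ABCA7 (1039681 to 1040210) and had a KO2 counterpart at percentile 37.2. Another ABCA7 peak, at 1042471 to 1042590, stood at percentile 19.5 in control and had a KO2 counterpart at 46.3. KO2 also had a peak of its own within CNN2, at 1037821 and percentile 49.8.

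Most control peaks at these genes had no counterpart in a knockout list, and those that ranked high more often did. Of the 38 BRG1 control peaks, 6 were overlapped by a KO1 peak (7.42% of all control peaks outside IgG were), 8 by a KO2 peak (14.1% of all), 3 by both (3.99% of all) and 27 by neither (82.5% of all). The 3 in both were the SRF and FHL2 intragenic peaks and the narrow MYL9 peak. At or above percentile 70, a bound set after the values were seen, 6 of 6 control peaks had a counterpart in KO1 or KO2 (55.9% of all such peaks), at SRF (2), MRTFA, VCL, FHL2 and ABCA7 beside CNN2. Below it, 5 of 32 had one (12% of all), at VCL, MRTFA, FHL2, MYL9 and ABCA7.

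The lists also differ in the weakest signal they contain. The lowest total signal was 4164 in BRG1 control, 6228 in KO1 and 5182 in KO2. Of the 38 control peaks, 27 lay below the lowest value of KO1 and 20 below that of KO2. Of the 11 at or above the KO1 value 3 had a KO1 peak (17.0% of all such peaks), and of the 18 at or above the KO2 value 7 had a KO2 peak (22.2% of all such peaks). These counts assume a shared scale, which was not tested. How far peak loss at these genes reflects occupancy cannot be told apart from the lists' lengths and lowest signals.

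**Figure D4:**
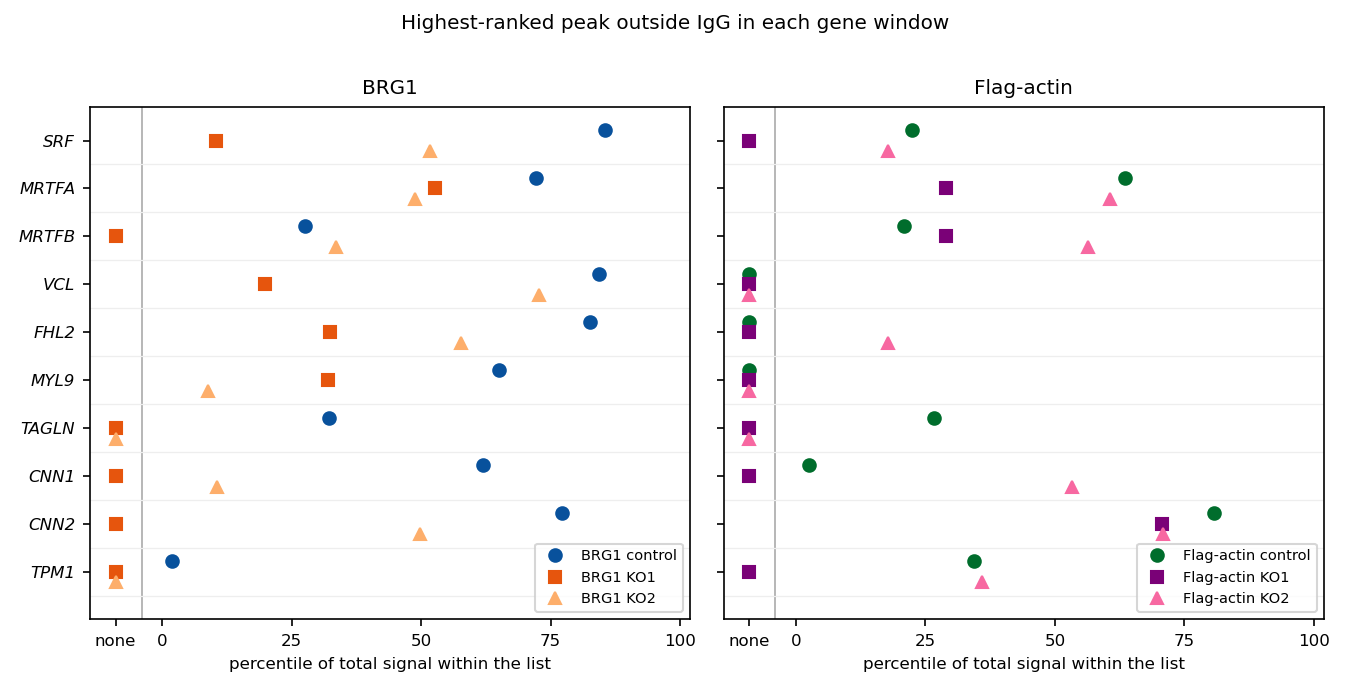
Percentile of the highest-ranked peak outside IgG in each gene window, for BRG1 (left) and Flag-actin (right), with symbols for control, KO1 and KO2 and "none" where a list had no such peak. BRG1 control symbols lie to the right of both knockout symbols at 9 genes, with "none" drawn at the left, MRTFB (27.6 in control, 33.6 in KO2) being the exception. Flag-actin symbols show no such order. Over whole lists the median percentile of BRG1 peaks outside IgG was 36.8 in control, 19.9 in KO1 and 26.1 in KO2. The control windows also held more BRG1 peaks from which the highest was taken. At CNN2 the highest BRG1 control peak lies in ABCA7 and the highest Flag-actin peaks lie in TMEM259.

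Flag-actin peaks at these genes were few, and the knockout libraries differed from each other more than either did from the control. Outside IgG, the windows held 9 Flag-actin peaks in control, 4 in KO1 and 17 in KO2, a knockout mean 1.5 higher with an SD of 9.19 (n = 2). The KO1 count was 44.4% and the KO2 count 189% of the control count, against 51.5% and 83.4% for the whole lists. Genes with a Flag-actin peak numbered 7 of 10 in control (48.3% of all genes), 3 in KO1 (32.4% of all) and 7 in KO2 (45.6% of all). MRTFA, MRTFB and CNN2 held one in all 3 lists (16.0% of all genes did), and TAGLN in control only (12.6% of all did). No gene of the set held Flag-actin in both knockout lists and not in control (5.19% of all genes did). The direction of the summed count rests on KO2, since without it the difference was −5.0 peaks and without KO1 it was 8.0. In lists cut to the length of the KO1 list, 3, 3 and 5 genes held a Flag-actin peak (35.5%, 32.4% and 34.0% of all genes) and 0 did so in control only (11.1% of all genes).

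The Flag-actin lists start at very different signals. The lowest total signal was 25771 in control, 4650 in KO1 and 5879 in KO2. All 4 KO1 peaks and all 17 KO2 peaks at these genes lay below the lowest value of the control list, as did 99.5% of all peaks outside IgG in each of those lists. All 9 control peaks lay above the lowest values of both knockout lists. Whether the lists share a scale was not tested, so presence in a knockout list and absence from the control list cannot be told apart from this difference in starting signal.

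One Flag-actin position recurred outside IgG. It lay in TMEM259, 9397 to 9058 bases before the CNN2 start in control (1017211 to 1017550, percentile 80.7). KO1 had a peak of 40 bp within it (percentile 70.7) and KO2 one of 50 bp (percentile 70.9). Of Flag-actin peaks up to 50 bp, 82.1% in KO1 and 73.6% in KO2 overlapped IgG, which these did not. It was thus 1 of 9 control peaks found in KO1 (4.06% of all Flag-actin control peaks outside IgG), in KO2 (6.54% of all) and in both (2.36% of all). The other 8 had no counterpart in either knockout list, against 91.8% of all.

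At SRF itself Flag-actin peaks were few. The control had 1 peak in CUL9 at percentile 22.4, KO1 none, and KO2 1 of 90 bp at the far end of SRF at percentile 17.7. Ranked by maximum signal these peaks stood at percentiles 56.8 and 35.2. Of the coactivators, MRTFA had 1 control peak, in the neighbour SGSM3 (percentile 63.5), 1 in KO1 within the gene (28.9) and 3 in KO2 (30.7 to 60.7). The KO2 peak at percentile 60.7 coincided with a peak of the other arm's IgG list. MRTFB had 1, 1 and 3 Flag-actin peaks, at different places in each list and at percentiles up to 56.4.

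Among the targets, VCL and MYL9 had no Flag-actin peak outside IgG in any library. FHL2 had none in control or KO1 and 4 in KO2, all between percentiles 6.92 and 17.7. TAGLN had 1 in control at 117199561 to 117199840 (percentile 26.6), inside the gene, and none in KO1 or KO2. CNN1 had a control peak over its start, from 140 bases before to 79 after, at percentile 2.53, and 3 KO2 peaks of which 2 lay 430 to 1209 bases past the start. It was the only promoter window of the 17 with a Flag-actin peak in any of the 3 lists (2.70% of all promoter windows in control, 0.734% in KO1 and 1.56% in KO2). TPM1 had 1 peak in control (percentile 34.3) and 1 in KO2 (36.0), at different places inside the gene.

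BRG1 and Flag-actin peaks were compared by position. Over the 9 pairings of a BRG1 and a Flag-actin library, 1 of the 38 BRG1 control peaks was overlapped by a Flag-actin peak, from KO2, in ELOF1 beside CNN1. Over whole lists, 1.83% to 3.73% of BRG1 peaks outside IgG were overlapped by a Flag-actin peak in these pairings.

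Part of the signal at these genes was shared with IgG. The windows held 5 sites present in both IgG lists, at CNN1, FHL2, VCL and, with 2 sites, MRTFA. The FHL2 site, 50 bp from 105412311 to 105412360, was in all 8 lists at percentiles 84.4 to 99.1. Its total signal was 155155 in BRG1 control, 131937 in KO1, 147722 in KO2 and 147597 in the IgG list of that arm. In the Flag arm it was 1163570 in control, 167887 in KO1, 246853 in KO2 and 156198 in IgG. Its height was 917, 298, 427 and 795 steps in the BRG1 arm and 1406, 449, 760 and 614 steps in the Flag arm, in the same order. By steps the control list was the highest of each arm, and by total signal it stood furthest from the others in the Flag arm, whose control list also has the highest lowest signal. These totals are on scales that may differ between lists. At MRTFA a site spanning 40462691 to 40462720 was also in all 8 lists, and another MRTFA position, at 40450171, was in the BRG1 arm IgG list in all 3 BRG1 lists and in Flag-actin KO2. Counting these peaks in, MRTFA would rise from 4, 2 and 2 BRG1 peaks to 7, 4 and 5.

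**Figure D5:**
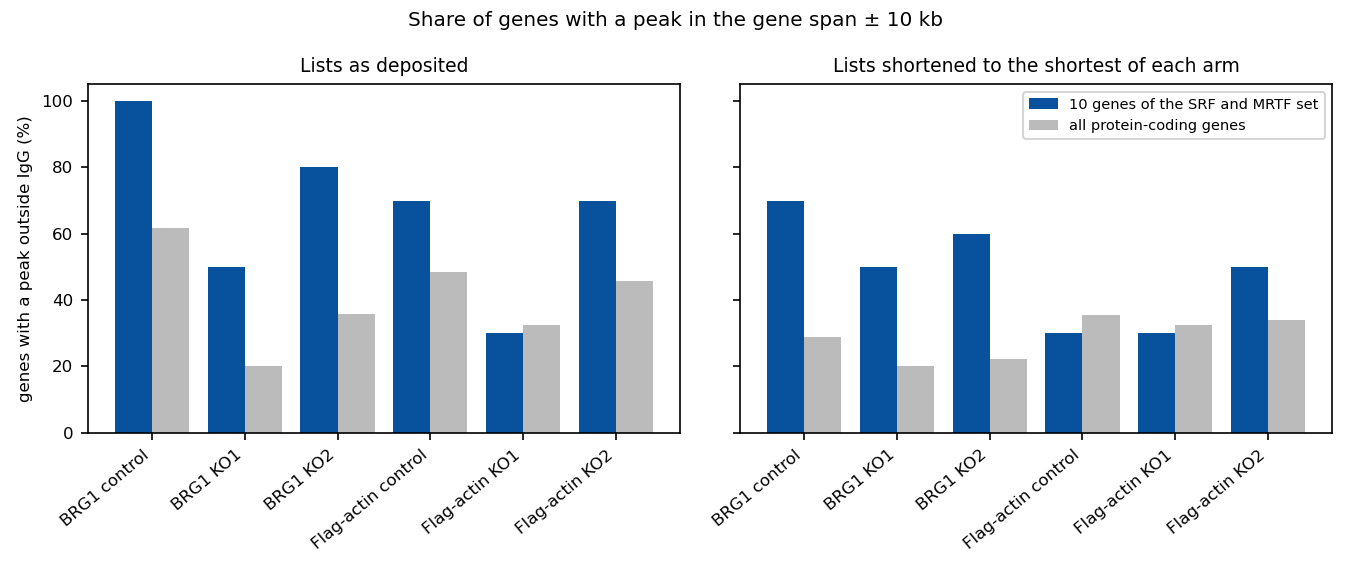
Share of genes (percent, vertical axis) with a peak outside IgG in the gene span plus 10 kb, for the 10 genes (blue) and all protein-coding genes (grey). The left panel uses the lists as deposited and the right panel lists of equal length within each arm. The blue BRG1 bars are above the grey ones in both panels, at 10, 5 and 8 of 10 genes on the left and 7, 5 and 6 of 10 on the right.

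Other genes of the pathway, from lists assembled with earlier results of these data known, gave the following BRG1 counts in control, KO1 and KO2, to be read against 61.8%, 20.2% and 35.8% of all genes, with 26.2% in control only and 0.868% in both knockout lists only. Of 4 other SRF partners (ELK1, ELK3, ELK4 and MYOCD), 3, 1 and 3 held BRG1. Regulators of the actin and MRTF switch, such as formins and cofilin, stood at 15, 7 and 13 of 17. In control only were the small GTPase genes RHOC (percentile 73.7) and RHOA (72.0) and the striated muscle activator ABRA (43.7), and in both knockout lists only was the formin gene DIAPH3 (35.2 and 36.2). Other cytoskeletal MRTF targets stood at 21, 10 and 15 of 26, with 5 in control only, a smaller share than over all genes. These included the matricellular gene CCN1 (47.6), the focal adhesion adaptor TGFB1I1 (46.3), the fibronectin receptor subunit ITGA5 (37.4) and smooth muscle actin ACTA2 (30.2).

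Paralogues of the members stood at 6, 2 and 4 of 12, with TAGLN2 (62.4), CNN3 (47.4) and FHL3 (45.7) in control only and TPM2 in both knockout lists only (39.5 and 33.6). Immediate early SRF targets, driven with ternary complex factors, stood at 9, 3 and 8 of 10, with the survival gene MCL1 (45.4) and the zinc finger gene EGR4 (15.8) in control only. Each of these BRG1 counts was lower in KO1 than in control, as the share of all genes was.

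For Flag-actin the same lists gave 2, 2 and 1 SRF partners, 10, 8 and 8 regulators, 12, 11 and 16 cytoskeletal targets, 6, 2 and 8 paralogues and 4, 1 and 4 immediate early genes. Over all genes the shares were 48.3%, 32.4% and 45.6%, with 12.6% in control only and 5.19% in both knockout lists only, and several of these lists lay near them. In control only were the regulators RHOA (59.7) and PFN1 (36.4), the targets ACTG2 (69.5), ZYX (67.8), ITGA5 (54.9) and ACTB (13.9), the paralogues FHL5 (42.7) and FHL3 (29.0), and JUNB (34.3) and NR4A1 (19.7). The ACTB call rests on 1 peak, since 6 of 7 Flag-actin peaks in the ACTB window overlapped IgG in control, 6 of 6 in KO1 and 5 of 5 in KO2. In both knockout lists only were DIAPH3 (10.4 and 33.4), the targets THBS1 (56.8 and 39.1), TES (49.1 and 23) and PDLIM7 (31.4 and 39.1), and TAGLN3 (10.4 and 45.1).

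Peaks are no direct check of cell identity. For BRG1, 4, 1 and 3 of 10 intestinal epithelial markers and 4, 3 and 5 of 12 smooth muscle and fibroblast markers held a peak. Over all genes the BRG1 shares were 61.8%, 20.2% and 35.8%. For Flag-actin the marker counts were 5, 3 and 4 of 10, and 7, 5 and 5 of 12, against 48.3%, 32.4% and 45.6% of all genes. The markers named next are single genes, and 26.2% (BRG1) and 12.6% (Flag-actin) of all genes were held in control only and 5.19% held Flag-actin in both knockout lists only. CDX2, an intestinal transcription factor gene, held BRG1 in control only (percentile 6.68), and Flag-actin likewise (18.2). Of the other intestinal markers with BRG1 in control, KRT8 held it in all 3 lists, and CDH1 and KRT18 in control and KO2. EPCAM and LMOD1 held Flag-actin in all 3 lists, SYNM held BRG1 in all 3, and COL1A1 held both. Over all genes, 12.3% held BRG1 and 16.0% held Flag-actin in all 3 lists. CDX1 held Flag-actin in both knockout lists only (31.4 and 29.3), as did COL1A2 (18.5 and 21.1). ACTG2 (69.5), DES (45.2) and SYNM (34.3) held Flag-actin in control only.

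The pattern across libraries was compared by the highest percentile in each of the 6 antibody lists, with 0 where a list had no peak. The genes most like SRF were CHD7, SEPTIN1 and RNF207, at mean absolute differences of 3.47, 4.31 and 4.47 percentile points. Those most like VCL, the member with most BRG1 control peaks, were ID1 at 1.61 and the neighbours CRYAB and C11orf52 at 1.62 each. The latter share peaks, and these values describe 6 libraries only.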

How the data were processed

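The 8 peak lists were deposited by the authors, 1 per library and not pooled, in a 6-column layout with 2 signal values per peak, its total and its maximum. The submitters' processing notes name the build hg38 and, in no stated order and without settings, bedtools 2.30.0, BWA, deepTools, FastQC 0.12.0, MACS2, SAMtools, SEACR and Trim Galore 0.4.5. The names of the deposited lists carry a threshold of 0.01 for the antibody and 0.005 for the IgG libraries. The normalisation of the deposited signal and the read depth were not given in the sources used here.

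Peaks on other contigs than chromosomes 1 to 22, X and Y (2.11% to 4.04% of a list) were dropped. Peaks were assigned to a gene by an overlap of at least 1 bp with its RefSeq span (GRCh38.p14, the same build) plus 10 kb on either side, and marked where they overlapped an IgG list by at least 1 bp. A gene was held by a list with at least 1 peak outside the IgG list of the same arm. Percentiles rank total signal within a list. Python 3.11.15, numpy 2.4.6 and pandas 2.3.3 were used. The interval functions were tested on simulated intervals against bedtools 2.31.1, with 0 disagreements over 17200 comparisons. No pair of lists shared position and total signal at more than 4 peaks. Alternatives covered the window, IgG overlap, list length, signal threshold and leaving out a knockout library. The RefSeq tables hold no exons or UTRs, so peaks were not assigned to these.

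The members and gene lists were chosen with earlier results of these data known. All 10 members are named. From each other list and antibody up to 4 genes in control only, by control percentile, and up to 3 in both knockout lists only were named. Markers held in all 3 lists of an antibody, and CDH1 and KRT18, were named as well, after the values were seen. For likeness, the 3 nearest genes to SRF and to the member with most BRG1 control peaks were taken.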

Additional observations from a re-analysis of the deposited data

How the results depend on the processing

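No paired analysis was possible because the results come from no test, although KO1 and KO2 carry the same numbers in both arms. The whole BRG1 lists held 34689 peaks outside IgG in control, 7012 in KO1 and 13220 in KO2. Most alternatives could thus hardly change the sign of the BRG1 difference at these genes. This difference between knockout mean and control stayed below 0 in all 11 alternatives. From −25.5 peaks it moved to −16.5 in the gene span alone, −48.5 with 50 kb on either side, −2.5 with equal-length lists and −9.0 in the stronger 50% of each list, and lay between −30.0 and −21.0 when a knockout library was left out. The genes with BRG1 in control only, 2 in the main count, numbered 1 in the gene span alone (TAGLN), 1 with equal-length lists (CNN1), 3 with 3 kb on either side (TAGLN, TPM1 and CNN1), 3 in the stronger 50% of each list (CNN1, CNN2 and MYL9, without TAGLN and TPM1), and 2 to 5 without a knockout library. The Flag-actin difference of 1.5 peaks changed sign to −19.5 with 50 kb on either side and −0.5 in the stronger 50%, was 0.0 where a peak counted as IgG only with at least 50% of it covered, and lay between −5.0 and 8.0 without a knockout library. Genes with Flag-actin in control only went from 1 to 0 with 50 kb, equal-length lists and the stronger 50%, and to between 1 and 4 without a knockout library. Genes with Flag-actin in both knockout lists only went from 0 to 1 in the gene span alone and with 3 kb on either side (MRTFA), 1 with equal-length lists (MRTFB), and 0 to 1 without a knockout library. The cause was not tested. Ranked by maximum in place of total signal, 25 of 40 highest percentiles moved by 10 points or more. Depth is unknown, and the lists name only peaks past a threshold, so absence from a list is no measure of zero.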
